A study of Mus musculus with 2 samples.

Results

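Maf-positive, Foxp3-negative CD4 T cells of mouse lymph nodes are described here, 185 cells of a wild-type (WT) library and 36 of a conditional knockout (CKO) library. They are 221 of 26523 cell barcodes, of which 25779 passed the filters on depth and mitochondrial share. The cells were chosen by measured counts of unique molecular identifiers (UMIs, each standing for 1 captured transcript). A member had at least 2 UMIs of Cd3d, Cd3e and Cd3g together, at least 1 UMI of Cd4 and at least 1 of Maf, and none of Foxp3, Cd8b1, Trdc, Cd79a or Ms4a1. The working name was helper T cells that express Maf, with Ctla4, Icos and Izumo1r as further markers.

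Immune cells were taken from the lymph nodes of C57BL/6 mice that were either wild type or carried an RPA1 conditional knockout. RPA1 is the large subunit of replication protein A, the complex that binds exposed single strands when DNA is copied or repaired. Each genotype was captured as 1 library with a 10x 3′ kit, so no test between genotypes was possible, and every interval below is a 95% interval that covers counting error only. The Cre driver, the deleted exons, the age and the number of mice are not given in the sources used here.

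MAF is a basic leucine zipper transcription factor of CD4 T cells that acts on cytokine genes such as Il10, Il21 and Il4, and it is a known factor of follicular helper, type 17 helper and regulatory T cells. CTLA-4 is an inhibitory receptor and ICOS a costimulatory receptor, both of which reach the surface of activated and regulatory CD4 T cells. Izumo1r encodes folate receptor 4, which is known to be high on regulatory, follicular helper and unresponsive CD4 T cells.

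Members were at least as deep as the cells around them by their median, and deeper in CKO. The WT members held a median of 6052 UMIs (1250 to 35324) and the CKO members a median of 6457 (3636 to 57223). The whole libraries held 84813609 UMIs in WT and 76200586 in CKO, with medians of 5984 and 4549 per barcode. Levels are given as CPM, the UMIs of a gene scaled to a total of 1000000 UMIs, over the UMIs summed over a group of cells, 1396408 UMIs for the WT members and 330379 for the CKO members. A total of 4 CKO members with over 20000 UMIs held 17.3%, 8.09%, 7.47% and 6.45% of all CKO member UMIs, whereas none of the 8 WT members above that depth held over 2.53% of the WT sum. The libraries had 56 barcodes in common, and no barcode was a member in both.

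Maf was found in a smaller share of Foxp3-negative CD4 T cells in CKO than in WT. Members made up 6.52% of these cells in WT (185 of 2837, interval 5.64% to 7.49%) and 2.74% in CKO (36 of 1315, 1.92% to 3.77%). The share is what the selection used and is given as a description. Median depth was 6025 UMIs in this WT gate and 5771 in the CKO gate. In B cells, which served as a background, a Maf UMI was found in 2.84% of WT and 3.59% of CKO cells, at median depths of 4054.5 and 3944 UMIs. Whether B cells lack Maf RNA of their own was not tested.

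To compare at equal depth, each cell was thinned to 2000 UMIs. The share with a Maf UMI was then 3.68% in WT (104 of 2825 cells, 3.02% to 4.44%) against 1.56% in WT B cells. In CKO it was 1.68% (22 of 1309 cells, 1.06% to 2.53%) against 1.82% in CKO B cells, so the CKO share did not exceed the B cell share. Thinning left out 12 WT and 6 CKO cells of the gate. In CD8 T cells the thinned share was 0.675% in WT (0.413% to 1.04%) and 1.97% in CKO (0.902% to 3.70%). The background thus depends on the cell type chosen for it.

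The same direction was seen in Foxp3-positive CD4 T cells, which Maf had no part in choosing. There, 29.6% of WT cells (42 of 142) and 6.19% of CKO cells (7 of 113) held a Maf UMI, and 23.2% (16.6% to 31.1%) and 3.54% (0.973% to 8.82%) did after thinning. The Maf level was 299 CPM in WT Foxp3-positive cells and 32.1 CPM in CKO ones, a ratio of 0.107 (0.0684 to 0.161). The Foxp3-negative CD4 gate as a whole had 41.6 and 10.9 CPM, a ratio of 0.262 (0.208 to 0.328). In CD8 T cells Maf was low and not lower in CKO (5.03 CPM in the WT library, 9.37 CPM in the CKO library), and B cells had 8.72 and 10.8 CPM. Fewer Maf-expressing cells and less Maf RNA per cell cannot be told apart in these data.

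**Figure D1:**
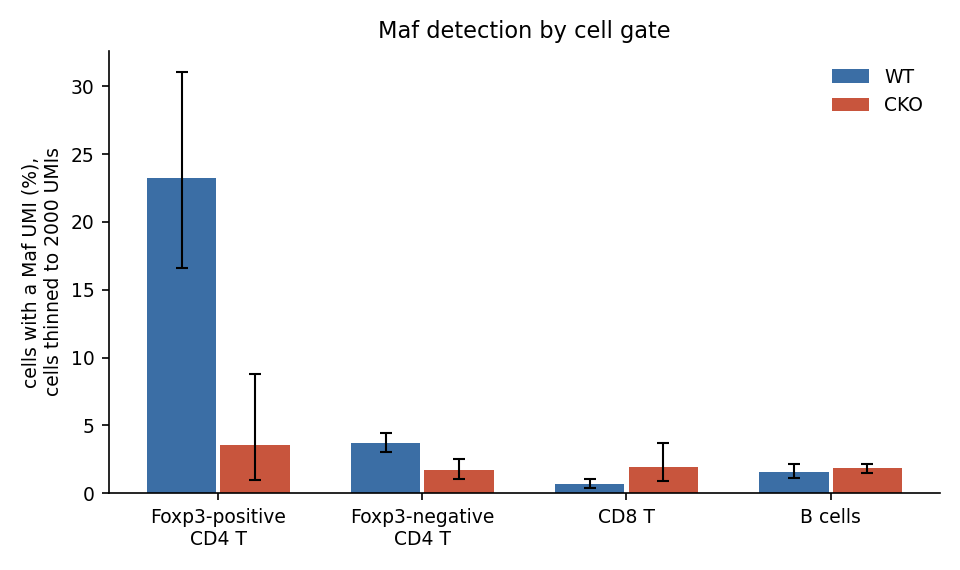
Percentage of cells with a Maf UMI in 4 cell gates after thinning each cell to 2000 UMIs, WT in blue and CKO in red, with exact 95% intervals for counting error (1 library per genotype). WT Foxp3-positive and Foxp3-negative CD4 T cells stood above their B cells, and the CKO Foxp3-negative share of 1.68% lay at the CKO B cell share of 1.82%.

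Within the members, Maf counts were also lower in CKO. A single Maf UMI was held by 78 of the 185 WT members (42.2%) and by 23 of the 36 CKO members (63.9%, 46.2% to 79.2%). At least 3 Maf UMIs were held by 74 WT members (40%) and by 6 CKO members (16.7%). The highest count in a cell was 55 in WT and 17 in CKO. Most CKO members thus lay at the lower edge of the selection.

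The marker genes of the working name were detected in most WT members, and pairs of them were found in few CKO cells. They do not separate helper from regulatory cells. Among WT Foxp3-positive cells, Ctla4 was detected in 62.7%, Icos in 34.5% and Izumo1r in 80.3%. At least 1 of Ctla4, Icos and Izumo1r was detected in 151 of 185 WT members (81.6%) and in 19 of 36 CKO members (52.8%, 35.5% to 69.6%). At least 2 of the 3 were detected in 102 WT members (55.1%) and in 6 CKO members (16.7%, 6.37% to 32.8%). All 3 were found together in 40 WT members and in 1 CKO member. None of them was found in 17 CKO members (47.2%), against 69.1% of CKO cells without Maf. The cells of both libraries are called by their rule and not by the helper name.

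Ctla4 held 227 UMIs over 80 of the 185 WT members, at most 10 in a cell, and 6 UMIs over 5 of the 36 CKO members, at most 2 in a cell. Summed, Ctla4 was at 163 CPM in WT members and at 18.2 CPM in CKO members, with a CKO over WT ratio of 0.112 (0.0406 to 0.247). The Maf-negative cells stood at 11.2 and 7.59 CPM, so the CKO members lay nearer to Maf-negative cells than to the WT members. B cells held a Ctla4 UMI in 0.527% of WT and 0.14% of CKO cells.

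Icos was detected in 88 WT members (47.6%) and in 7 CKO members (19.4%), at 168 and 54.5 CPM, a ratio of 0.325 (0.189 to 0.525). Izumo1r was the most often detected of the 3, in 125 WT members (67.6%) and in 14 CKO members (38.9%). Its level was 413 CPM over WT members and 99.9 CPM over CKO members, a ratio of 0.242 (0.165 to 0.343). Izumo1r was also lower in CKO cells without Maf, at 58.5 against 119 CPM. B cells held an Icos UMI in 0.203% of WT and 0.224% of CKO cells, and an Izumo1r UMI in 0.932% and 0.868%.

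The marker combination could be followed without the Maf threshold. In the whole Foxp3-negative CD4 gate, at least 2 of Ctla4, Icos and Izumo1r were detected in 11.4% of WT cells (322 of 2837) and in 4.64% of CKO cells (61 of 1315). After thinning to 2000 UMIs the shares were 3.33% (2.70% to 4.06%) and 0.535% (0.215% to 1.10%). No thinned B cell carried such a pair, 0 of 2436 in WT and 0 of 7031 in CKO, which by the limit of 3 counts allows shares of up to 0.123% and 0.0427%. Of the marker-bearing cells, 31.7% in WT (102 of 322) and 9.84% in CKO (6 of 61, 3.70% to 20.2%) had a Maf UMI. The share of cells with a marker pair did not use the Maf threshold but comes from the same cells, whereas the share of them with Maf uses that threshold and is a description.

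The 3 marker genes lie on 2 chromosomes. On GRCm38, Ctla4 (ENSMUSG00000026011) spans chr1:60887000-60915832 on the plus strand, Icos (ENSMUSG00000026009) spans chr1:60977927-61000320 on the same strand, and Izumo1r (ENSMUSG00000031933) spans chr9:14885814-14903949 on the minus strand. The 250 bases before the RefSeq start of Ctla4 and Izumo1r (GRCm38.p6), the markers with an entry, are shown because both genes went with Maf in WT. Capitals mark TGCTGA, the half-site of the element that MAF proteins bind, which was searched on both strands (TCAGCA on the other) as the only motif. The Ctla4 window is chr1:60908775-60909024, plus strand, and the Izumo1r window is chr9:14903768-14904017, minus strand.
Ctla4: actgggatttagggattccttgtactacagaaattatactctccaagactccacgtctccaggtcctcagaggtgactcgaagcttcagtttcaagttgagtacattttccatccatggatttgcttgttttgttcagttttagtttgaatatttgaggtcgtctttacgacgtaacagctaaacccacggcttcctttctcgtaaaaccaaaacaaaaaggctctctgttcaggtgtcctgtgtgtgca
Izumo1r: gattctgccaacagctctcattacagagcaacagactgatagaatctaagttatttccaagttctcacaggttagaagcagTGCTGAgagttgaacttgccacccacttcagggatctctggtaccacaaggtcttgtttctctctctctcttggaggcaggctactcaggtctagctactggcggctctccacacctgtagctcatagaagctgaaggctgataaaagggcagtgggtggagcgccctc
The Izumo1r window held the half-site 1 time and the Ctla4 window did not hold these letters. Of 32851 such windows of the same length, 16.1% held it, as did 2 of the 15 windows found for the 20 genes highest in WT members over Maf-negative cells, those of Lyz2 and S100a6. A match is a description of letters and not of a bound site.

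**Figure D2:**
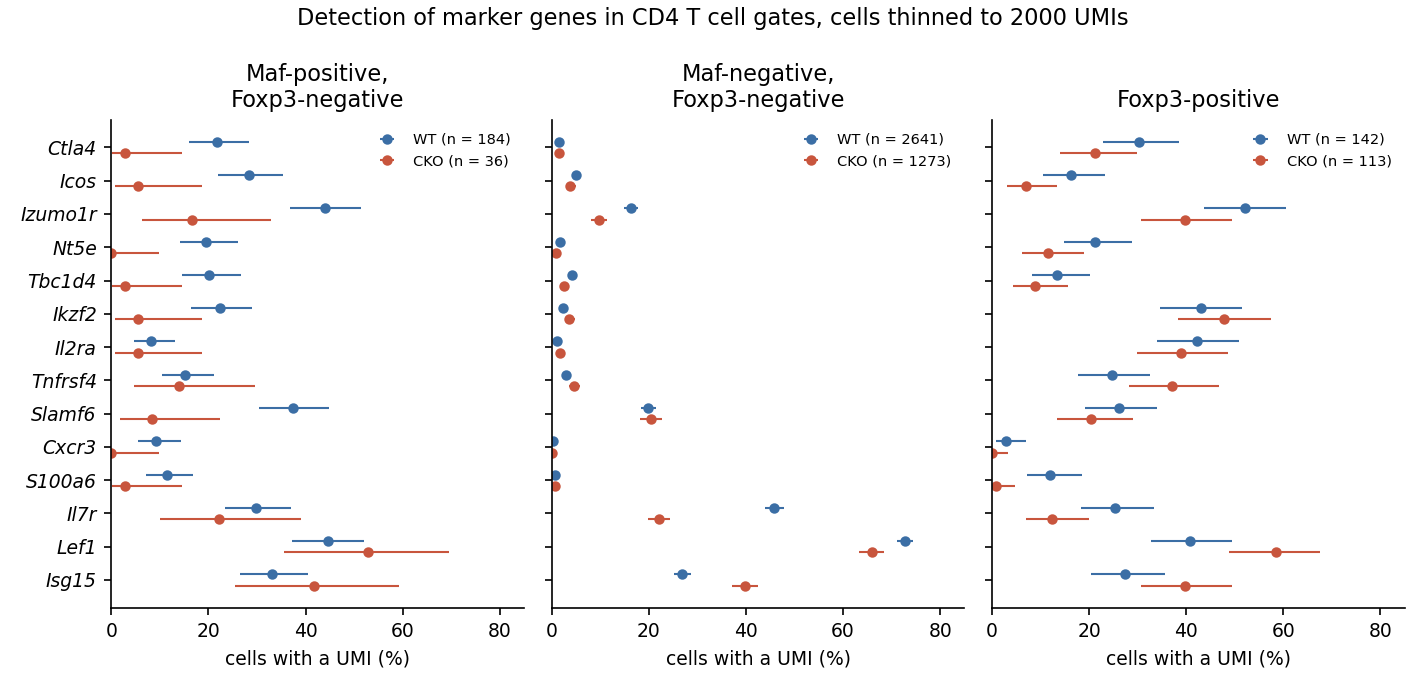
Percentage of cells with a UMI of 14 genes after thinning each cell to 2000 UMIs, in Maf-positive Foxp3-negative, Maf-negative Foxp3-negative and Foxp3-positive CD4 T cells, WT in blue and CKO in red, with exact 95% counting intervals. Ctla4 was found in 21.7% of WT and 2.78% of CKO Maf-positive cells, and in 1.55% and 1.41% of Maf-negative cells.

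Marker levels differed by Maf count in WT, just inside and just outside the threshold. WT cells with no Maf UMI had 11.2 CPM of Ctla4, cells with 1 had 55.1 CPM (37.2 to 78.6), cells with 2 had 215 CPM (159 to 285) and cells with 3 or more had 237 CPM (201 to 278). Icos stood at 27.9, 90.0, 188 and 228 CPM in the same order. Lef1, a transcription factor of naive T cells, went the other way, at 716, 547, 332 and 280 CPM. WT members with a single Maf UMI therefore lay between Maf-negative cells and those with more Maf.

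In CKO this pattern was not seen for Ctla4. Ctla4 stood at 7.59 CPM with no Maf UMI, 24.4 CPM (6.65 to 62.5) with 1, at 0 UMIs in the 7 cells with 2, and at 15.9 CPM (1.93 to 57.5) in the 6 cells with 3 or more. Those 6 cells were deep, with a median of 15016 UMIs. They held Icos at 111 CPM (60.9 to 187) and Izumo1r at 95.4 CPM (49.3 to 167). The 64 WT cells with exactly 1 Foxp3 UMI had 187 CPM of Ctla4 and 403.8 CPM of Izumo1r. Of these, 15 had a Maf UMI and so lay just outside the gate on its Foxp3 side. They had 452 CPM of Ctla4 (342 to 587) and 347 CPM of Icos. The 49 without a Maf UMI had 93.8 CPM of Ctla4 (64.6 to 132) and 17.1 CPM of Icos. Izumo1r stood at 403.8 and 403.7 CPM in the same order.

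**Figure D3:**
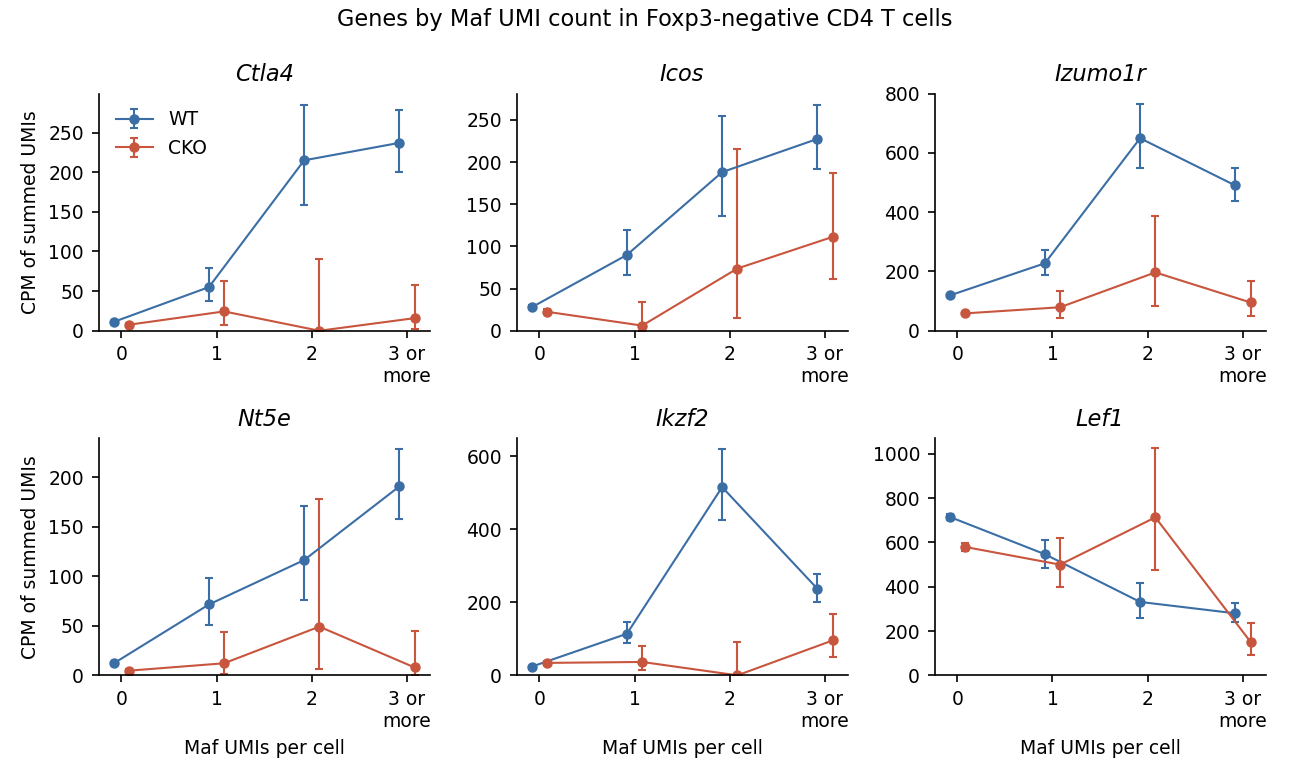
Levels of 6 genes in CPM of summed UMIs (vertical) by the number of Maf UMIs per cell (horizontal) in Foxp3-negative CD4 T cells, WT in blue and CKO in red, with exact 95% Poisson intervals. In WT Ctla4 went from 11.2 CPM without Maf to 237 CPM with 3 or more Maf UMIs, while in CKO it stayed at or below 24.4 CPM.

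The WT members are large enough in number to be described across genes. Against the WT Maf-negative cells, Ctla4 was 14.6 times as high (11.9 to 17.8), Nt5e 11 times (8.95 to 13.5), Ikzf2 9.83 times (8.46 to 11.4) and Tnfrsf4 7.96 times (6.66 to 9.5). Nt5e encodes the ectoenzyme CD73, Ikzf2 the transcription factor Helios and Tnfrsf4 the costimulatory receptor OX40. These ratios describe how cells picked by Maf differ from the rest, since every gene of these cells shares the selection.

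The detection of these genes was spread over many WT members. Nt5e was found in 69 of the 185 cells with at most 26 UMIs in 1 of them, Ikzf2 in 60 cells and Tnfrsf4 in 56. Bhlhe40, a transcription factor induced in activated T cells, stood at 48.0 CPM in WT members and 2.43 CPM in WT Maf-negative cells, a ratio of 19.7 (13.2 to 29.8) from 25 cells. Il2rb, the receptor chain that binds interleukin 2 and interleukin 15, stood at 105 against 13.7 CPM, a ratio of 7.62, and was found in 66 cells.

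Other high ratios came from few cells. Plac8 reached 50.7 times with 61.4% of its 324 UMIs in 1 WT cell. Lyz2, lysozyme of myeloid cells, reached 31.3 times with 137 of 153 UMIs in 1 WT cell, and Ccl5, a chemokine of effector T cells, reached 7.64 times from 13 cells. S100a6 and S100a4, calcium-binding proteins of antigen-experienced T cells, were 17.8 and 8.67 times as high, from 32 and 16 cells. Genes of proliferation such as Rrm2, Pclaf, Birc5, Kif11 and Mki67 were 7.49 to 10.9 times as high, and each was found in 6 to 19 WT members. Thinned before the gate, the log2 ratios of Mki67 and Rrm2 turned to -0.97 and -0.039.

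Few genes were lower in WT members by as much. Ly6c1, a surface protein of resting and memory T cells, stood at 53 CPM in WT members and 163 CPM in Maf-negative cells (ratio 0.325). Igfbp4 stood at 202 against 454 CPM, Dapl1 at 134 against 330 CPM and Il4ra, the interleukin 4 receptor, at 32.2 against 67.5 CPM. Il7r, the receptor for the survival cytokine interleukin 7, was found in 77 WT members (41.6%) and in 72.0% of WT Maf-negative cells, at 239 and 427 CPM.

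The lists gave the same order. Genes counted here had a mean of at least 20 CPM over the members of both libraries. Of these, 5.43% stood at least 2-fold above WT Maf-negative cells in WT members, and 0.247% at least 2-fold below them. The median log2 ratio of all 5677 was 0.14. Genes low in members fell below this floor, so the higher and lower shares cannot be set against each other. Of 17 regulatory T cell genes other than Foxp3, 8 were measured, and all 8 were at least 2-fold higher, with a median log2 ratio of 2.96. Of the follicular helper genes 5 of 9 were, with a median of 1.01, and of the memory and effector genes 11 of 15, with a median of 1.70. Of the replication and cycling genes 15 of 19 were, with a median of 1.93, which turned to -0.014 when cells were thinned to 2000 UMIs before the gate. All but 1 of the 18 naive T cell genes were lower, as were 1765 of all genes, 3 of them at least 2-fold, with a median of -0.62.

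In both libraries at once, 93 of 2976 genes (3.12%) were at least 2-fold higher in members than in Maf-negative cells, and 0 (0%) were at least 2-fold lower. The floor, a mean of at least 50 CPM, was set on the members, so genes below it in members could not be counted as lower. The 20 highest included Bhlhe40, Ctla2a, Eea1, S100a4, S100a6, Anxa2 and Ahnak, and the other 13 were genes of replication, histones or mitosis such as Rrm2, Uhrf1 and Cdca8. Of these 20 genes, 14 had over 50% of their CKO UMIs in 1 cell and 7 were found in at most 3 CKO members. Bhlhe40 was 14.6 times as high in the CKO members as in CKO Maf-negative cells, from 4 cells with 19 UMIs, of which 14 lay in 1 cell. Ranked instead at a floor of 50 CPM in Maf-negative cells, the genes lowest in both were led by Lpp and Dusp10. Dusp10 encodes a phosphatase that acts on stress kinases. Each stood at 0.399 to 0.501 of the Maf-negative level.

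Genes that define helper types were found in small subsets of the WT members. Il21, the cytokine of follicular helper cells and a known MAF target, was detected in 13 WT members (7.03%) at 20.1 CPM, and in 1 of 2652 Maf-negative WT cells. In CKO it was detected in 1 member, which held 9 UMIs. Pdcd1, the inhibitory receptor PD-1, was found in 22 WT members and 1 CKO member. Cxcr5, the follicle homing receptor, was found in 13 WT members and 1 CKO member, and B cells held a Cxcr5 UMI in 30.3% of WT cells. Bcl6, the factor that directs follicular helper cells, had 12.9 CPM over WT members and 21.2 CPM over CKO members, from 15 and 5 cells.

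Il10, which encodes an inhibitory cytokine, had 28 UMIs in 6 WT members, 15 of them in 1 cell. No UMI of Il10, Il4, Ifng, Tbx21, Il17a or Il13 was found in the CKO members, and a count of 0 there allows up to 9.08 CPM by the limit of 3 counts. The counting interval of the Il10 ratio was 0 to 0.595, but it treats UMIs of the same cell as separate. By cells, Il10 was found in 3.24% of WT members (1.20% to 6.93%) and in 0 of 36 CKO members (0% to 9.74%). WT members had 9 UMIs of Il4, 16 of Ifng, 8 each of Tbx21 and Il13, and 1 of Il17a. With so few UMIs or cells, a difference between the libraries was not detectable for Il10 or for these other 5 genes. Gata3, a factor of type 2 helper and other T cells, was present in both, at 63.7 and 39.3 CPM.

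The WT members were not alike among themselves. A set of 5 genes (Ctla4, Icos, Izumo1r, Nt5e and Tbc1d4), put together after their values were seen, had at least 3 detected in 85 WT members (45.9%). A set of 4 effector genes (S100a4, S100a6, Ccl5 and Cxcr3) had at least 2 detected in 28 WT members (15.1%), and 18 of these 28 also met the first condition. A UMI of Mki67, Top2a or Rrm2 was found in 40 WT members (21.6%) and in 6 CKO members (16.7%). Ikzf2 and Il2ra, both known from regulatory T cells, were detected together in 17 WT members (9.19%).

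Foxp3-positive cells were the nearest comparison. All 8 measured regulatory T cell genes other than Foxp3 were lower in WT members than in WT Foxp3-positive cells, 7 of them at least 2-fold, with a median log2 ratio of -1.16 against 0.05 for all genes. Of all 5677 genes, which passed the floor set on the members, 2421 were lower and 0.705% at least 2-fold. Il2ra, the high-affinity interleukin 2 receptor chain, stood at 55.1 CPM in the members and 341 CPM in Foxp3-positive cells, and Ikzf2 at 233 and 529 CPM. Follicular helper genes were higher in 7 of 9, with a median of 0.73, as were 3256 of all genes. Ctla4 (163 and 232 CPM), Nt5e (132 and 181 CPM) and Izumo1r (413 and 511 CPM) were close to the Foxp3-positive level. Of the WT Foxp3-positive cells, 64 of 142 (45.1%) held a single Foxp3 UMI, and whether some members held Foxp3 RNA that was not captured was not tested.

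Between genotypes, the targeted gene comes first. Rpa1 had 83 UMIs in 61 of 185 WT members, at most 5 in a cell, and 7 UMIs in 2 of 36 CKO members, 6 of them in 1 cell. These are 59.4 and 21.2 CPM, a ratio of 0.356 (0.139 to 0.768). In Maf-negative cells Rpa1 stood at 45.4 and 23.7 CPM, and in Foxp3-positive cells at 31.5 and 32.1 CPM, with no lower value in CKO. The sources used here do not place the deletion within the gene, so counts of 3′ ends may lie outside it and are no check of the genotype label. Rpa2 stood at 36.5 and 42.4 CPM in members, and Rpa3 at 37.2 and 78.7 CPM, both encoding smaller subunits of the same complex.

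Of 2976 genes with a mean of at least 50 CPM, 55 (1.85%) were at least 2-fold lower and 99 (3.33%) at least 2-fold higher in CKO members than in WT members. With the highest cell of each gene left out, 111 were lower and 10 higher. Leaving that cell out takes a larger part of the 36 CKO members than of the 185 WT members. It thus tends to lower the CKO over WT ratio by its construction, so these counts do not show which direction prevails. Genes that mark the WT members led the lower side. Tbc1d4, which encodes a GTPase-activating protein for Rab proteins, had 233 UMIs in 70 WT members and 4 UMIs in 4 CKO members. These are 167 and 12.1 CPM, a ratio of 0.0726 (0.0196 to 0.188). Nt5e was found in 69 WT and 5 CKO members, at 132 and 15.1 CPM, a ratio of 0.114 (0.0367 to 0.271). Ikzf2 was found in 60 WT and 6 CKO members, at 233 and 54.5 CPM, a ratio of 0.233 (0.137 to 0.375). Each of these, and of Ctla4, Icos and Izumo1r above, was detected in a smaller share of the 36 CKO than of the 185 WT members. Across these genes the shares ran from 11.1% to 38.9% in CKO and from 32.4% to 67.6% in WT, so the ranges overlapped. When cells were thinned to 2000 UMIs before the gate, which left 65 WT and 15 CKO members, Ctla4, Nt5e and Izumo1r were still at least 2-fold lower, but Tbc1d4, Ikzf2 and Icos were not.

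Further genes of the lower side had other roles. Slamf6, a receptor by which T cells touch B cells, stood at 256 CPM in WT (113 cells) and 69.6 CPM in CKO (14 cells), a ratio of 0.272 (0.170 to 0.415). Pou2f2, a transcription factor of lymphocytes, had a ratio of 0.287 (0.158 to 0.484), from 83 WT and 7 CKO cells. Il2rb had a ratio of 0.289 (0.136 to 0.548), from 66 and 8 cells. Dennd2d and BE692007 had ratios of 0.251 and 0.317 and were found in 110 and 136 WT members.

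Il7r stood at 239 CPM in WT members and 69.6 CPM in CKO members, a ratio of 0.291 (0.182 to 0.444). It was lower in every CD4 gate, with ratios of 0.372 in Maf-negative and 0.270 in Foxp3-positive cells. Lyz2 and Ccl5 rested on few cells: 137 of the 153 WT Lyz2 UMIs lay in 1 cell, and 15 of the 16 CKO Ccl5 UMIs lay in 1 cell. S100a6 had a ratio of 0.312 (0.175 to 0.518), from 32 WT and 4 CKO cells. Thinned before the gate, its log2 ratio turned to 0.14, and Il2rb and Il7r, at -0.072 and -0.63, were no longer at least 2-fold lower.

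The same contrast in Maf-negative and Foxp3-positive cells comes from the same 2 libraries, so the values are set side by side only. Ctla4 had a CKO over WT ratio of 0.112 in members, 0.680 in Maf-negative and 0.371 in Foxp3-positive cells. Nt5e had ratios of 0.114, 0.391 and 0.270 in the same order, and Tbc1d4 0.0726, 0.552 and 0.587. Icos had 0.325, 0.809 and 0.224. Ikzf2 differed in direction, at 0.233 in members, 1.43 in Maf-negative and 0.847 in Foxp3-positive cells. In the CKO library the thinned share with Maf did not exceed that of B cells. By this share, cells that express Maf and cells with a background Maf UMI cannot be told apart. Counts per CKO member ran from 1 Maf UMI in 23 cells to 17 in 2 cells.

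The higher side in CKO rested on few cells. Of the 15 highest genes 9 had over 50% of their CKO UMIs in 1 cell, and 7 were found in at most 3 CKO members. Gzma, a granule protease of cytotoxic cells, had 3 UMIs in WT and 96 in CKO members, 94 of them in the deepest CKO cell of 57223 UMIs. That cell also held 30 of the 31 CKO UMIs of Ccr9, a gut homing receptor, 358 of the 421 of the linker histone Hist1h1b, and 43 UMIs of Cd74 and 34 of H2-Ab1, which present antigen in B and myeloid cells. It was not among the cells with the highest doublet scores, and whether it is a single cell was not tested.

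Replication genes made up most of the remainder. Hist1h1a had 29 UMIs in 8 WT members and 61 UMIs in 3 CKO members, a ratio of 8.89 (5.63 to 14.4). Uhrf1, which maintains DNA methylation, stood at 28.6 and 115 CPM, and Asf1b, a histone chaperone, at 21.5 and 87.8 CPM. Uhrf1 had 27 of its 38 CKO UMIs in 1 cell. Without the cells over 20000 UMIs, 3 of the 15 genes, Hist1h1a, Asf1b and Siva1, remained at least 2-fold higher and 9 turned to the other side, 5 of them histone genes with no CKO UMI left, whereas all 15 lowest genes remained at least 2-fold lower. Siva1 stood at 30.8 and 118 CPM, from 22 WT and 10 CKO members.

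**Figure D4:**
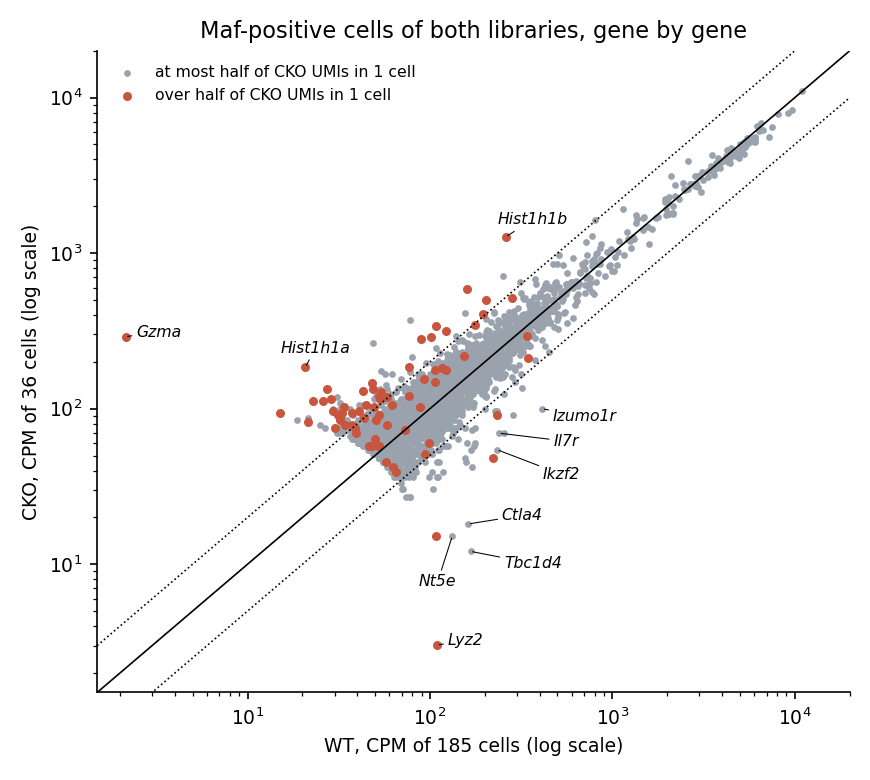
Level of each gene with a mean of at least 50 CPM in WT (horizontal) and CKO (vertical) members, both on log scales in CPM of summed UMIs, with equality as a solid line and 2-fold as dotted lines; red points have over 50% of their CKO UMIs in 1 cell. Farthest above the lines lies Gzma, with 94 of 96 UMIs in 1 cell, and Ctla4, Tbc1d4, Izumo1r and Ikzf2 lie below.

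Of the lists with at least 5 measured genes, inhibitory receptors and anergy genes had the lowest medians in CKO members. At the floor of 20 CPM, 5.09% of 5677 genes had a CKO member level at least 2-fold above WT and 4.16% a level at least 2-fold below it, and the median log2 ratio of all was 0.04. Of the inhibitory receptors 3 of 6 measured genes were at least 2-fold lower, with a median log2 ratio of -1.58: Ctla4, Lag3 (48.0 and 6.05 CPM) and Cd200 (79.5 and 15.1 CPM). Their median was -0.32 when cells were thinned to 2000 UMIs before the gate. Of the anergy genes 4 of 8 were, with a median of -1.43, namely Izumo1r, Nt5e, Lag3 and Nrp1 (37.2 and 6.05 CPM). Lag3 and Nrp1 each had 2 UMIs in 1 CKO member. Lists share genes, so these counts are not separate observations.

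Follicular helper genes had 4 of 9 at least 2-fold lower and a median of -0.91. Slamf6 and Cd200 were joined by Sh2d1a, the adaptor through which SLAM receptors signal, at 159 and 60.5 CPM, and by Tnfsf8, a ligand of the tumour necrosis factor family, at 66.6 and 33.3 CPM. Id3, an inhibitor of E proteins, was close in both libraries, at 95.2 and 106 CPM. Regulatory T cell genes had 4 of 8 at least 2-fold lower and a median of -0.90. Among them Tnfrsf4 stood at 152 and 127 CPM and Tnfrsf18, the receptor GITR, at 109 and 154 CPM, so neither OX40 nor GITR was at least 2-fold apart. In Maf-negative cells the same 8 genes had a median of 0.56.

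Costimulatory receptors had 3 of 10 at least 2-fold lower and a median of -0.47. Cd28, the main costimulatory receptor, stood at 320 CPM in 146 WT members and 136 CPM in 28 CKO members, a ratio of 0.426 (0.306 to 0.579). Type 1 helper genes had 3 of 6 at least 2-fold lower and a median of -1.07. Only 2 type 2 helper genes were measured, with a median of 0.11, and 1 gene that MAF is known to act on, Il21, at 0.44. Memory and effector genes were mixed, with 3 of 15 at least 2-fold higher, 2 lower and a median of -0.39, which turned to 0.29 with at least 2 Maf UMIs and to 0.14 when thinned before the gate. Of these, Lgals1 stood at 251 and 711 CPM with 113 of its 235 CKO UMIs in 1 cell, and Id2, an inhibitor of E proteins in effector cells, at 177 and 60.5 CPM.

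Naive T cell genes lay near the median of all genes. They had a median of 0.10, with 2 of 18 at least 2-fold higher and 1 lower. Lef1 stood at 392 and 393 CPM and Tcf7 at 416 and 387 CPM. Igfbp4 stood at 202 and 375 CPM and Ly6c1 at 53 and 133 CPM, both nearer to the Maf-negative level in CKO members.

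Interferon-stimulated genes were higher in 40 of 52 measured, 4 of them at least 2-fold, with a median of 0.20. Of all 5677 genes, 3057 were higher. Isg15, a ubiquitin-like protein, had 379 CPM over WT members and 684 CPM over CKO members, and 297 and 611 CPM over Maf-negative cells. Rsad2, an antiviral enzyme, stood at 44.4 and 106 CPM. Gbp2, a guanylate-binding protein, was the 1 gene of the list at least 2-fold lower, at 98.8 and 36.3 CPM. In Maf-negative cells 51 of the 52 were higher, with a median of 0.48, as were 3613 of all 5677 genes.

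Replication and cycling genes had the highest median of the lists with at least 5 measured genes, 1.14, with 12 of 19 at least 2-fold higher and none lower. Stmn1 stood at 155 and 415 CPM and Pclaf at 122 and 318 CPM, with 62 of 137 and 54 of 105 CKO UMIs in 1 cell. The share of members with a UMI of Mki67, Top2a or Rrm2 was not higher in CKO. Without cells over 20000 UMIs the median was 0.32, over the 11 genes still measured. Of the p53 target genes 4 of 11 were at least 2-fold higher, with a median of 0.40. Cdkn1a, the cell cycle inhibitor p21, had 13 UMIs in WT and 24 in CKO members, 20 of them in 1 cell, and all 13 CKO UMIs of Phlda3 lay in 1 cell. Of the receptor-induced genes 3 of 10 were at least 2-fold higher, among them Nr4a3 at 7.16 and 66.6 CPM from 10 WT and 6 CKO members.

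**Figure D5:**
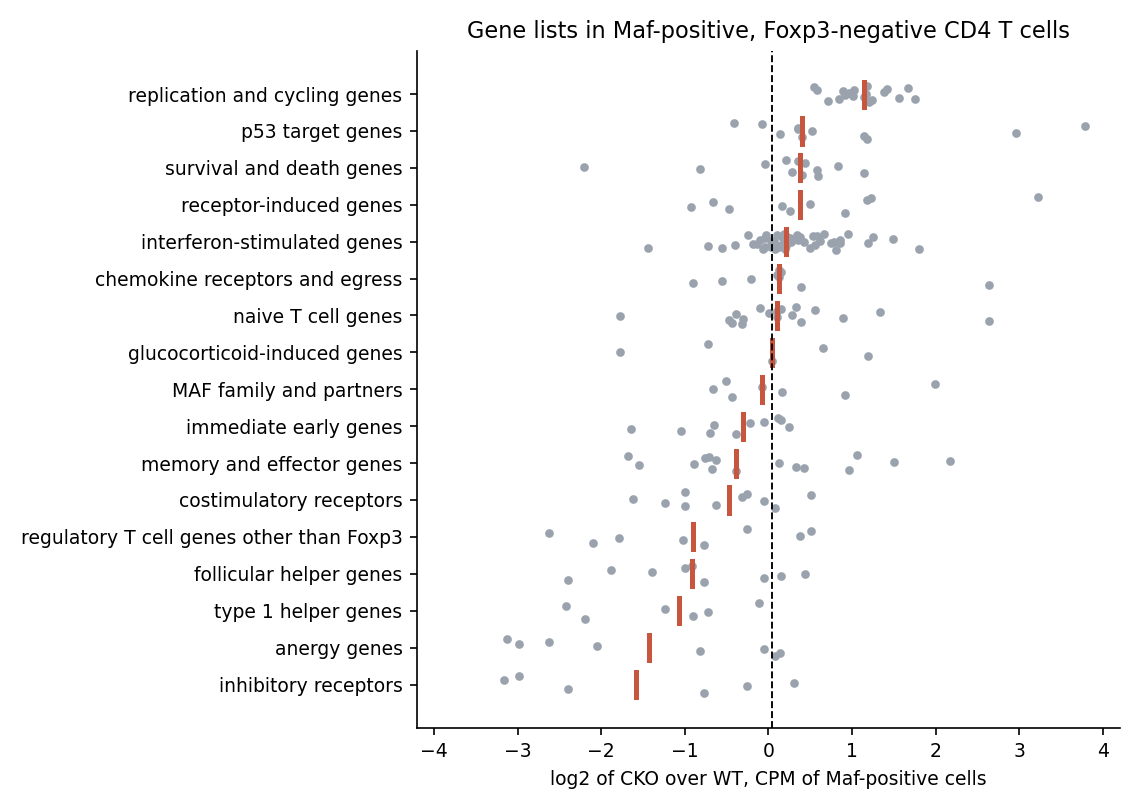
Log2 of the CKO over WT level in members (horizontal) for each measured gene (grey) of 17 lists with at least 5 measured genes, with list medians as red bars and the median of all genes, 0.04, as a dashed line. Inhibitory receptors and anergy genes lay lowest, at medians of -1.58 and -1.43, and replication and cycling genes highest, at 1.14.

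Markers of other cell types were low in the members, and their part in these results was not tested. The 12 B cell markers summed to 504 CPM in WT and 611 CPM in CKO members, against 45679 and 42714 CPM in B cells. The 8 myeloid markers summed to 313 and 93.8 CPM, and 254 of the WT UMIs lay in 1 cell. The 8 natural killer markers summed to 15 and 300 CPM, with 95 CKO UMIs in 1 cell and Ncr1, Klre1 and Klra8 at 0 in both libraries. All 8 erythroid and stromal markers were at 0, Cd8a stood at 1.43 CPM in WT and 0 UMIs in CKO, and the gamma delta T cell markers summed to 2.15 and 21.2 CPM.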

How the data were processed

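The authors deposited UMI counts per gene and barcode for each library, whole numbers without normalization, made with Cell Ranger 6.0.2 per the file headers. The submitters' processing notes name Cell Ranger 5.0.0 and Seurat 4.0.3 on mm10, so the version is uncertain. Groups follow the genotype labels. Filters of at least 500 UMIs, at least 200 genes and a mitochondrial share of at most 10% left 12463 WT and 13316 CKO cells. Doublets were not called beyond the gate; Scrublet scores (Scanpy 1.11.5) served an alternative. Maf-negative cells passed every other limit with Maf at 0, Foxp3-positive cells had at least 1 Foxp3 UMI, and B cells had Cd79a and Ms4a1 without Cd3. The CD8 gate was added after seeing the data.

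UMIs were summed per library and gate and scaled to CPM (Python 3.11.15, SciPy 1.17.1). Intervals are exact: Clopper-Pearson for shares, Poisson for levels and conditional binomial for ratios; the script was tested on simulated data. With 1 library per genotype, at least 2-fold counts as a call. Named genes include the 15 highest and 15 lowest CKO over WT ratios at a mean of 50 CPM whose interval leaves out 1. They also include the 20 highest and 10 lowest over Maf-negative cells, list members at 20 CPM and helper type genes. Receptor segments, mitochondrial genes, Xist, Y chromosome genes, predicted genes and genes 10 times as high in B cells were left out. The ranking in WT alone was added after seeing the data. Members and lists were chosen with earlier results of these data known. Gene positions come from GENCODE M21 (GRCm38), and promoter sequences from RefSeq (GRCm38.p6). Alternatives are given in the closing section.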

Additional observations from a re-analysis of the deposited data

Results flagged for a closer look

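For 10 of the 30 genes named between genotypes, the counting interval of the CKO over WT ratio lay below 1 in the members and above 1 in the Maf-negative cells, or the reverse. Among all genes compared, 87 had such intervals, these 10 included, and 22 of the 87 had most of their CKO UMIs in 1 cell. All 87 had a mean of at least 50 CPM in members, a floor that 2976 genes reached. The share of all genes with most CKO UMIs in 1 cell is not given here. The 30 genes were named for extreme ratios in members with an interval that leaves out 1. That part of the condition was met beforehand, so 10 of 30 does not show how common the difference is. Both contrasts come from 1 library per genotype, so the difference between them was not tested. Ikzf2 had a ratio of 0.233 in members and 1.43 in Maf-negative cells, Il2rb 0.289 and 1.33, and Ccl5 0.218 and 1.88. The Ccl5 value in members rested on 13 WT cells and 2 CKO cells.

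The other 7 of these named genes were histone genes, high in CKO members and low in CKO Maf-negative cells. Hist1h1a had ratios of 8.89 and 0.630, Hist1h1b 4.89 and 0.241, Hist1h2ab 5.47 and 0.354, and Hist1h2ae 3.66 and 0.658. Hist1h2af had 3.8 and 0.339, Hist1h2bj 4.89 and 0.568, and Hist1h2bn 4.55 and 0.396. Each was found in 2 to 5 CKO members. The Hist1h2a and Hist1h2b genes are close copies within each family, so how reads were counted for each copy is uncertain.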

How the results depend on the processing

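The smaller CKO share of members held under every alternative that changed the members. Alternatives that changed only totals, weights, floors or the cells counted for a gene left the share as it was. The WT and CKO shares were 3.77% and 0.989% with at least 2 Maf UMIs, and 4.21% and 1.74% when cells were thinned before the gate, which left 65 and 15 members. Without cells with a cycling gene UMI, 145 WT members (a share of 5.50%) and 30 CKO members were left. This alternative, leaving out cells over 20000 UMIs and leaving out each gene's highest cell were chosen after seeing the data. The last takes 1 of 36 CKO members but 1 of 185 WT members, which tends to lower the CKO over WT ratio by its construction. Genes at least 2-fold lower in CKO numbered 160 with at least 2 Maf UMIs, 218 thinned, 236 at a floor of 20 CPM, 125 with ribosomal protein and mitochondrial genes out of the totals, 111 without each gene's highest cell and 90 without cycling cells. Genes at least 2-fold higher numbered 189, 221, 289, 156, 10 and 57 in the same order, 57 without cells over 20000 UMIs and 52 with each cell weighing the same.

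Genes higher than in Maf-negative cells numbered 127 in WT and 93 in both libraries. They became 216 and 171 with at least 2 Maf UMIs, 308 and 220 at the floor of 20 CPM, 82 and 37 with cells weighing the same, 64 and 23 without cells over 20000 UMIs, 56 and 18 without cycling cells and 65 and 32 without each gene's highest cell. The list medians moved to -1.14 for costimulatory receptors and 0.29 for memory and effector genes with at least 2 Maf UMIs. Inhibitory receptors moved to -0.32 thinned and -0.26 at a floor of 100 CPM, where 1 gene was left. Cycling genes moved to 2.22 thinned, 0.32 without cells over 20000 UMIs and -0.035 without cycling cells, which that alternative removes by its construction.

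The log2 CKO over WT ratio changed sign for Ccr9 (-1.69 without cells over 20000 UMIs, -1.83 without cycling cells, -1.38 without its highest cell, -0.88 thinned), Hist1h2ae (-2.51 and, thinned, -0.072), Hist1h2ap (-1.69) and Snhg15 (-0.030, and -0.45 with at least 2 Maf UMIs), and thinned for Lyz2 (1.93) and S100a6 (0.14). In WT over Maf-negative cells it did so thinned for Hist1h2ae (-1.67), Hist1h2an (-1.60), Mki67 (-0.97), Rrm2 (-0.039) and the cycling list (-0.014), and for Hist1h2ae without cycling cells (-0.0047). For these the cause was not tested. Thinned, 8 of the 15 lowest genes stayed at least 2-fold lower, among them Ctla4, Nt5e and Izumo1r but not Tbc1d4, Ikzf2 or Icos.

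No paired analysis was possible because each genotype had 1 library. The 36 CKO members limit every level there: 1 UMI is worth 3.03 CPM, and intervals cover counting error only.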
